A study of Mus musculus with 6 samples.

Results

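Histone lysine methyltransferases and demethylases, with the subunits that serve them, were followed through 3 stages of the mouse hair follicle stem cell lineage. Genes were taken as members where the platform's symbol began with Kdm, Kmt, Setd, Smyd or Suv39h and a number, with Kdm5d left out, or where they were Ehmt1, Ehmt2, Nsd1, Setdb1, Setdb2, Dot1l, Ash2l, Wdr5, Rbbp5 or Dpy30. Ash1l and Suv39h1 belong to the same rule and were not analysed here. This gave 49 members among 18193 measured genes, each read through its brightest probe set named for that gene alone. Of these, 32 are methyltransferases or subunits of methyltransferase complexes and 17 are demethylases.

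Methyl groups on histone lysines are written by SET domain enzymes, and on lysine 79 of histone H3 by Dot1l, which has a different catalytic fold. They are removed by the flavin-dependent LSD enzymes and by the JmjC family, which uses iron and oxoglutarate. Methylation of H3 lysine 4 marks promoters and enhancers, methylation of H3 lysine 36 and lysine 79 marks transcribed genes, and methylation of H3 lysine 9 marks heterochromatin and silenced genes. In the hair follicle, stem cells of the bulge rest for long periods, become active at the start of a growth phase and give rise to transit-amplifying cells of the matrix, which divide quickly before they differentiate.

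RNA of sorted cells from back skin of untreated female CD-1 mice was hybridised to 6 Affymetrix arrays, 2 for each of 3 groups. Quiescent hair follicle stem cells (qHF-SC) came from mice at postnatal days 52 to 60 and were sorted on integrin α6 and CD34. Activated hair follicle stem cells (aHF-SC) came from mice at postnatal days 28 to 30 and were sorted on GFP, integrin α6 and CD34. Transit-amplifying cells (HF-TAC) came from mice of that same younger age and were sorted on GFP, integrin α6 and ephrinB1. The labels do not say which transgene carried GFP, how many mice were pooled, or whether the 2 arrays of a group came from separate animals, so p-values measure only the spread between these arrays. Age and sorting scheme differ between qHF-SC and the 2 younger groups and cannot be told apart from the cell state. In such sorted bulk samples, a change in RNA per cell and a change in the mix of cells also cannot be told apart.

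The deposited values are linear probe set intensities, and a difference is given on the log2 scale with its standard error (SE). A difference was called where limma, fitted over all genes and all 6 arrays, gave an adjusted p under 0.05. Replicate arrays correlated at 0.9885 to 0.9915 over all genes and at 0.977 to 0.985 over the members on the log2 scale. The division markers, 9 of 10 measured, summed to 257 to 334 in qHF-SC, 1487 to 3135 in aHF-SC and 10935 to 13232 in HF-TAC. All 8 bulge markers were lower in HF-TAC than in aHF-SC, and 5 of 7 matrix markers were higher. Cd34 is among these 8 and served to sort the stem cells, so its fall is not a separate check of the groups. Of 10 dissociation-stress genes, 8 were higher in aHF-SC than in qHF-SC and 9 were higher in HF-TAC than in qHF-SC. Of the 6 dermal fibroblast genes, 1 was higher and 1 lower in HF-TAC than in qHF-SC. Dcn read 17 to 87 on the 4 stem cell arrays and 3646 and 5927 in HF-TAC, and Col1a2 read 278 and 381 in qHF-SC, 133 and 173 in aHF-SC, and 61.1 and 157 in HF-TAC (log2 −1.73, adjusted p = 0.0194). Col1a1, at 36.7 to 69.7, and Col3a1, at 41.8 to 302, did not pass, and Lum and Pdgfra were under an intensity of 32 in every group. Melanocyte genes summed to 155 to 202, 259 to 339.5 and 419 to 617 in the same order, with Tyr under an intensity of 32 in every group. The 7 inner root sheath genes summed to 596 to 736, 982 to 1169.9 and 5895 to 11608. The 5 genes of differentiated keratinocytes summed to 9265 to 10833, 3083 to 3765 and 8211 to 12678. The 4 endothelial genes summed to 61 to 81 and the 5 immune genes to 125 to 191 over all arrays. The part of dividing, dissociated or other cells in the differences below was not tested.

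The promoters of the 4 members with the largest called rises, from the RefSeq promoter table of mouse build GRCm38.p6, are shown so that the start regions of genes that rose in the same comparison can be read side by side. Each window runs from 250 bases before the start of transcription to 30 after it, and capitals mark matches to 4 short motifs searched on both strands: TTCCCGC, an E2F type of site, CCAAT, bound by NF-Y, TTTGAA, a CHR type of site, and CACGTG, an E box. Kmt2e, the member with the largest fall, is not among the 38 members listed in that table. The Suv39h2 window lies at chr2:3474957-3475236 on the minus strand, with TTCCCGC beginning 145 bases before the start and TTTGAA 19 bases after it. The Kmt5a window, for 1 of 3 starts listed, lies at chr5:124439680-124439959 on the plus strand, with CCAAT beginning 223, 191, 75 and 34 bases before the start. The Kdm2b window, for 1 of 4 starts listed, lies at chr5:122988478-122988757 on the minus strand, and the Smyd2 window at chr1:189922262-189922541 on the minus strand. Neither of these windows holds any of the 4 motifs, while 2 of the 3 other Kdm2b windows hold CCAAT.
Suv39h2: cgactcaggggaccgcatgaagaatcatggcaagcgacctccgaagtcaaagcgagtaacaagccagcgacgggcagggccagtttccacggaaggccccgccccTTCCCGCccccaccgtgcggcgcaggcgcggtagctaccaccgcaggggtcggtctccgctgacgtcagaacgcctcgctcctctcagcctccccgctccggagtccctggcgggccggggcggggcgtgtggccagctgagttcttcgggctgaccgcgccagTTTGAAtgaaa
Kmt5a: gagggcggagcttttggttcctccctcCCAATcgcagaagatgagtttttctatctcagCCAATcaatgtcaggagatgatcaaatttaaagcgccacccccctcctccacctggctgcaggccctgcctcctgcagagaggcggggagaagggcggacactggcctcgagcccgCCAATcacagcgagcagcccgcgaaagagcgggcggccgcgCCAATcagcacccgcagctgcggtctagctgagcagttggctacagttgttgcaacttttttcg
Kdm2b: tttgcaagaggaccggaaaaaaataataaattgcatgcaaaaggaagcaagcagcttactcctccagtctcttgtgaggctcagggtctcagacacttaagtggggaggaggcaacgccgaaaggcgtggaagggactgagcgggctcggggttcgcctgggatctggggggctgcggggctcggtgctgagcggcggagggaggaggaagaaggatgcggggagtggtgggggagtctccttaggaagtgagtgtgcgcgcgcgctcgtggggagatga
Smyd2: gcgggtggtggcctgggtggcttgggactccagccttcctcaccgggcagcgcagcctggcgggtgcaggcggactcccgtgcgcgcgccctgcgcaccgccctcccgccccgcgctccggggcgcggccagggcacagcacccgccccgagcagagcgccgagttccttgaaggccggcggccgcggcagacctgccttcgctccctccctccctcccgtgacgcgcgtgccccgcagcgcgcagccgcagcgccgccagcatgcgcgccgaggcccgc

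The shares of windows that hold a motif were counted over the 52 windows of the 38 listed members and over all 32851 windows of the table. CCAAT stood in 21 member windows (40.4%) against 36.1% of all windows, and TTCCCGC in 2 (3.85%) against 4.29%. TTTGAA stood in 6 (11.5%) against 17.2%, and CACGTG in 5 (9.62%) against 6.79%. Of the 9 listed members that were higher in HF-TAC than in qHF-SC, 6 held CCAAT, 3 held TTTGAA, 1 held TTCCCGC and 0 held CACGTG in any of their windows. Counted in the same way over the 38 listed members, these numbers are 17 (44.7%), 6 (15.8%), 2 (5.26%) and 4 (10.5%), against 39.7%, 19.5%, 4.93% and 7.71% of all 27025 genes in the table. These are matches of letters in these windows and were not set against any binding data.

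Between quiescent stem cells and transit-amplifying cells, the 2 ends of the lineage in this design, 10 members rose and 3 fell. Those that rose were Suv39h2, Kmt5a, Kdm2b, Smyd2, Smyd5, Kdm8, Kdm1a, Ash2l, Dpy30 and Dot1l, and those that fell were Kmt2e, Setd7 and Kmt2c. The 13 are 26.5% of the members, against 26.3% of all genes tested. By direction, 20.4% of the members were higher against 13.4% of all genes, and 6.12% were lower against 12.9% of all genes. The split of 10 higher to 3 lower became 10 to 5 with quantile normalization, 9 to 5 with scaling to the 75th percentile and 10 to 1 with centring on the median. The number of lower calls was also 1 when any single array other than HF-TAC replicate 2 was left out, when only these 2 groups were fitted and with the replicate block. The higher calls numbered 6 without qHF-SC replicate 2 and 7 without HF-TAC replicate 2.

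The 2 steps within that range held fewer calls. From qHF-SC to aHF-SC, Smyd2 rose and Kmt2e fell, which is 4.08% of the members against 6.28% of all genes (2.04% against 3.07% higher, and 2.04% against 3.21% lower). From aHF-SC to HF-TAC, Suv39h2, Kdm8, Smyd5 and Kdm7a rose and 0 members fell, which is 8.16% of the members against 17.5% of all genes. By direction this is 8.16% against 8.97% higher and 0.00% against 8.57% lower. By an unadjusted p under 0.05, limma marked 7 members at the first step (14.3% against 20.3% of all genes), 14 at the second (28.6% against 29.0%) and 21 from end to end (42.9% against 35.9%). With quantile normalization or scaling to the 75th percentile, 1 member was called lower at the second step, beside 4 and 6 higher. In all, 14 members (28.6%, against 30.1% of all genes) were called in at least 1 comparison and 35 in none. The 3 comparisons share arrays, so their calls are not independent of each other.

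**Figure D1:**
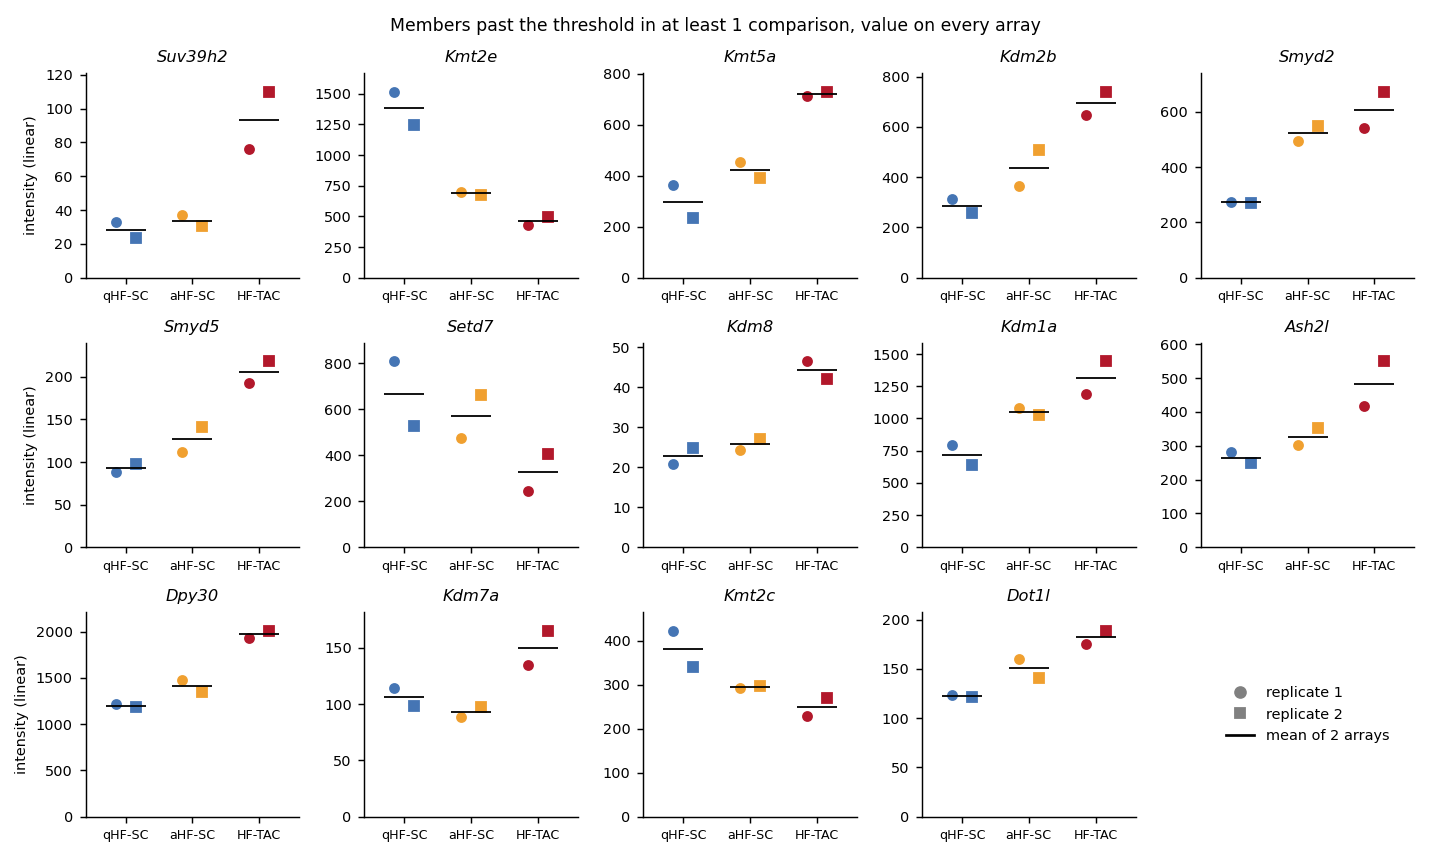
Linear intensity on each of the 6 arrays for the 14 members called in at least 1 comparison, 1 panel a gene, with groups on the horizontal axis, circles for replicate 1, squares for replicate 2 and a line at the mean of the 2 arrays. The vertical axes start at 0 and differ between genes. Kmt2e falls from 1515 and 1245 in qHF-SC to 431 and 499 in HF-TAC, and Suv39h2 rises from 33 and 23 to 76 and 109.9.

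Among the 5 measured enzymes that methylate H3 lysine 9, Suv39h2 was the one member called. Over all genes, 30.1% were called in at least 1 comparison. Suv39h2 trimethylates this residue in heterochromatin. Its intensity was 32.9 and 23.3 in qHF-SC, 36.9 and 30.7 in aHF-SC, and 76.1 and 109.9 in HF-TAC. Both HF-TAC arrays lay above all 4 stem cell arrays, and the 2 stem cell groups overlapped. It was 3.30-fold higher in HF-TAC than in qHF-SC (log2 1.72 ± 0.25 SE, adjusted p = 0.0022) and 2.72-fold higher than in aHF-SC (log2 1.44 ± 0.25 SE, adjusted p = 0.00756). Without aHF-SC replicate 2 the second value was 1.31 with an adjusted p of 0.0546, and over all alternatives that p lay between 0.00273 and 0.0546. Of its 2 other probe sets, the one that reached a mean of 94.6 in HF-TAC was also higher there, by 2.17 over qHF-SC and 2.33 over aHF-SC on the log2 scale, from stem cell means of 20.4 and 18.8. The last one stayed under an intensity of 32 in every group. The qHF-SC mean of the probe set used, 28.1, and both stem cell means of that second probe set were also under 32, so these folds are set against a dim side.

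The other measured H3 lysine 9 writers did not pass in any comparison, and Suv39h1 was not among those measured. Setdb1, which is brought to retroelements and other targets by KRAB zinc finger proteins, read 163 and 174 in qHF-SC, 161 and 197 in aHF-SC, and 220 and 299 in HF-TAC. Its HF-TAC arrays lay above the rest, and the difference from qHF-SC was 0.61 on the log2 scale (95% interval 0.14 to 1.07, adjusted p = 0.0617). Its other probe sets stayed under an intensity of 32 in every group. When each was tested by itself, 1 was higher by 0.57 (adjusted p = 0.0468) and the last differed by −0.22 (0.37). Ehmt1 and Ehmt2, the pair known as GLP and G9a that set the mono- and dimethyl mark, differed by 0.23 (−0.21 to 0.66) and −0.05 (−0.56 to 0.45) between HF-TAC and qHF-SC, with overlapping arrays. Setdb2 differed by 0.38 (−0.18 to 0.94).

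Of the 3 members grouped here as methyltransferases of H4 lysine 20, Kmt5a rose from qHF-SC to HF-TAC, where 13.4% of all genes were higher. Smyd5, also described as a writer at this residue, rose as well and is given with the SMYD family. Kmt5a, also called Set8, places the monomethyl mark and is controlled through the cell cycle. Its intensity was 362 and 233 in qHF-SC, 453 and 391 in aHF-SC, and 711 and 728 in HF-TAC, with no overlap between any of the groups. It was 2.48-fold higher in HF-TAC than in qHF-SC (log2 1.31 ± 0.22 SE, adjusted p = 0.00496), and this held in all 11 other settings and in all 6 fits that left out an array. Averaged over its probe sets the difference was 0.54; 2 of its 4 probe sets stayed under an intensity of 32, and the other bright one was higher by 0.86. Against aHF-SC the difference of 0.77 did not pass (adjusted p = 0.0557, between 0.0294 and 0.235 over the alternatives). It did so without either qHF-SC array or with only these 2 groups fitted (0.0294 each), with scaling to the 75th percentile (0.0459) and with dim genes left out (0.0475).

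Kmt5b and Kmt5c, which add further methyl groups at this residue, were not called. Kmt5b read 181 and 164 in qHF-SC, 147 and 160.3 in aHF-SC, and 91.1 and 135 in HF-TAC, so that the arrays fell without overlap at each step. Its difference between HF-TAC and qHF-SC was −0.64 (95% interval −1.13 to −0.14, adjusted p = 0.0641). It passed in 2 of 11 other settings, quantile normalization and scaling to the 75th percentile. The highest adjusted p over the alternatives was 0.775. In fits that left out an array the difference ran from −0.92, without HF-TAC replicate 2, to −0.36. A second probe set above an intensity of 32 went the other way, by 0.41, and the mean of its 5 probe sets gave 0.08. Kmt5c differed by 0.40 (−0.11 to 0.91).

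Of the 7 H3 lysine 4 methyltransferases, 2 fell from qHF-SC to HF-TAC and 0 rose, where 12.9% of all genes were lower and 13.4% higher. Setd7, which monomethylates this residue and also acts on proteins other than histones, read 809 and 526 in qHF-SC, 476 and 664 in aHF-SC, and 246 and 404 in HF-TAC. The HF-TAC arrays lay below the 4 stem cell arrays, and replicates lay up to 1.64-fold apart. Its second probe set stayed under an intensity of 32 in every group. By the brighter one, the fall from qHF-SC was 2.07-fold (log2 −1.05 ± 0.31 SE, adjusted p = 0.0449). It lost its call in each fit without an array except HF-TAC replicate 2: the adjusted p was 0.232 and 0.0509 without qHF-SC replicate 1 and 2, 0.0532 without either aHF-SC array and 0.196 without HF-TAC replicate 1. It also lost it in 5 of 11 settings, among them the mean of its 2 probe sets (−0.47, adjusted p = 0.0707) and the replicate block (0.0672), and the adjusted p lay between 0.0157 and 0.232 over all alternatives.

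Kmt2c, which with Kmt2d monomethylates enhancers, fell in the same comparison. It read 423 and 341 in qHF-SC, 293 and 298 in aHF-SC, and 229 and 269.8 in HF-TAC, with no overlap between groups. The fall was 1.53-fold (log2 −0.61 ± 0.17 SE, adjusted p = 0.0375). It lost its call without any 1 of the 6 arrays, with adjusted p of 0.204 and 0.0556 without qHF-SC replicate 1 and 2, 0.0594 without either aHF-SC array, and 0.155 and 0.0533 without HF-TAC replicate 1 and 2. The adjusted p was also above the threshold with centring on the median (0.056), an intensity trend (0.0501), only these 2 groups fitted (0.0594) and the replicate block (0.0614). Over all alternatives the adjusted p ran from 0.015 to 0.204. All 4 of its probe sets were lower in HF-TAC, by 0.48 to 0.77, and 1 of them passed when each probe set was tested by itself.

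The remaining 5 writers of H3 lysine 4 were not called. Kmt2a, or MLL1, known for holding Hox genes active, read 163 and 131 in qHF-SC, 115 and 135 in aHF-SC, and 84.0 and 107 in HF-TAC. Its difference between HF-TAC and qHF-SC was −0.62 (95% interval −1.08 to −0.16, adjusted p = 0.0541), and both of its probe sets were lower. Kmt2b differed by 0.11 (−0.57 to 0.79) and Kmt2d by 0.00 (−0.78 to 0.79). Setd1a differed by 0.01 (−0.47 to 0.49) and Setd1b by 0.04 (−0.58 to 0.65). From aHF-SC to HF-TAC all 7 differences were below 0, from −0.83 in Setd7 to −0.02 in Kmt2b, and 0 passed. Over all genes, 48.4% were above 0 at that step. Of the 7, Setd7 had the largest uncalled difference of that step (adjusted p = 0.122).

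The core subunits that COMPASS-type complexes share, Wdr5, Rbbp5, Ash2l and Dpy30, form the platform that activates the catalytic subunit. Ash2l read 281 and 249 in qHF-SC, 303 and 352 in aHF-SC, and 418 and 549.8 in HF-TAC. It was 1.81-fold higher in HF-TAC than in qHF-SC (log2 0.86 ± 0.19 SE, adjusted p = 0.0142), with its arrays rising at each step without overlap. The call was lost when qHF-SC replicate 2 (adjusted p = 0.0907) or HF-TAC replicate 2 (0.0695) was dropped and when its probe sets were averaged (0.46, adjusted p = 0.106), over a range of 0.00802 to 0.106. Its second probe set differed by 0.07.

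Dpy30, the member with the highest mean intensity, read 1217 and 1183 in qHF-SC, 1475 and 1349 in aHF-SC, and 1936 and 2008 in HF-TAC. It too rose at each step without overlap and was 1.64-fold higher in HF-TAC than in qHF-SC (log2 0.72 ± 0.15 SE, adjusted p = 0.0099). Without qHF-SC replicate 2 its adjusted p was 0.0625, the highest of a range from 0.00465. Wdr5, which binds the H3 tail and the catalytic subunits, differed by 0.45 (95% interval 0.04 to 0.86, adjusted p = 0.111) and was not called. Its dimmer probe set, at means of 54.6, 83.0 and 169.6, was higher by 1.64 and passed when tested by itself (adjusted p = 0.00153). Rbbp5 differed by −0.13 (−0.50 to 0.25).

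Dot1l, the methyltransferase of H3 lysine 79, read 124 and 122 in qHF-SC, 159.6 and 141 in aHF-SC, and 175 and 189 in HF-TAC. The groups did not overlap, and it was 1.48-fold higher in HF-TAC than in qHF-SC (log2 0.57 ± 0.15 SE, adjusted p = 0.0294). The call was lost without qHF-SC replicate 1 (adjusted p = 0.11), qHF-SC replicate 2 (0.13), HF-TAC replicate 1 (0.062) or HF-TAC replicate 2 (0.117), with scaling to the 75th percentile (0.0509) and with an intensity trend (0.0569), and the range over all alternatives was 0.00309 to 0.13. A second probe set, with group means of 48.4, 105 and 137, was higher by 1.48 in HF-TAC than in qHF-SC and by 1.12 in aHF-SC than in qHF-SC, and both passed when probe sets were tested by themselves. Nsd1 and Setd2, which methylate H3 lysine 36, were not called, at 0.07 (95% interval −0.45 to 0.60) and −0.44 (−0.82 to −0.06, adjusted p = 0.0939).

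The catalytic SET domain of the SMYD family is split by a MYND zinc finger. Of its 5 members, Smyd2 and Smyd5 rose from qHF-SC to HF-TAC, where 13.4% of all genes were higher. Smyd2, which methylates H3 lysine 36 and p53, read 274 and 271 in qHF-SC, 496 and 549.6 in aHF-SC, and 542 and 672 in HF-TAC. The quiescent arrays lay below all others, and the 2 younger groups overlapped. It was 1.92-fold higher in aHF-SC than in qHF-SC (log2 0.94 ± 0.17 SE, adjusted p = 0.0227) and 2.22-fold higher in HF-TAC than in qHF-SC (log2 1.15 ± 0.17 SE, adjusted p = 0.00234). The first of these lost its call without qHF-SC replicate 1 (adjusted p = 0.0917), qHF-SC replicate 2 (0.141), aHF-SC replicate 1 (0.0831) or aHF-SC replicate 2 (0.105), the lowest value over the alternatives being 0.0133. Smyd2 has 1 probe set.

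Smyd5, which has been described as a writer of H4 lysine 20 trimethylation, read 88.8 and 97.7 in qHF-SC, 112 and 141 in aHF-SC, and 193 and 218 in HF-TAC. Its arrays rose at each step without overlap, to 2.20-fold in HF-TAC over qHF-SC (log2 1.14 ± 0.17 SE, adjusted p = 0.00299). The rise from aHF-SC to HF-TAC was 1.63-fold (log2 0.71 ± 0.17 SE, adjusted p = 0.0325). This second rise did not pass with only these 2 groups fitted (adjusted p = 0.0577). It was 0.24 (adjusted p = 0.661) when probe sets ending in _x_at or _s_at, which can bind several transcripts, were left out, and 0.36 (0.181) when its probe sets were averaged. It also lost its call without either qHF-SC array (0.0577), aHF-SC replicate 1 (0.15), HF-TAC replicate 1 (0.0567) or HF-TAC replicate 2 (0.134), and the range over all alternatives was 0.027 to 0.661. Smyd1, Smyd3 and Smyd4 were not called, at −0.57 (95% interval −0.99 to −0.14), −0.07 (−0.42 to 0.29) and 0.45 (0.05 to 0.84) between HF-TAC and qHF-SC.

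The member with the largest fall was Kmt2e, or MLL5, a SET domain protein for which histone methyltransferase activity is not established and whose PHD finger binds trimethylated H3 lysine 4. It read 1515 and 1245 in qHF-SC, 700.3 and 675 in aHF-SC, and 431 and 499 in HF-TAC. The groups did not overlap at either step. It was 2.96-fold lower in HF-TAC than in qHF-SC (log2 −1.57 ± 0.17 SE, adjusted p = 0.00068) and 2.00-fold lower in aHF-SC than in quiescent cells (log2 −0.999 ± 0.17 SE, adjusted p = 0.0196). The second step, −0.57 on the log2 scale, did not pass (adjusted p = 0.0601). The fall from qHF-SC to aHF-SC lost its call without qHF-SC replicate 1 (adjusted p = 0.0929), qHF-SC replicate 2 (0.0759), aHF-SC replicate 1 (0.0872) or aHF-SC replicate 2 (0.0878) and when its probe sets were averaged (−0.74, adjusted p = 0.0864), over a range of 0.0109 to 0.0929.

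The fall of Kmt2e was seen by several probe sets. Of its 6, 4 were above an intensity of 32, and tested one by one all 4 were called lower in HF-TAC than in qHF-SC, with log2 differences of −1.57, −1.64, −1.02 and −1.68. The same 4 were called lower at the first step, with log2 differences of −0.999, −1.28, −0.95 and −1.29. Setd3, an actin histidine methyltransferase, Setd4, Setd5 and Setd6 were not called, and their differences between HF-TAC and qHF-SC ran from −0.23 to 0.07.

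Of the 17 demethylases, 3 rose from qHF-SC to HF-TAC and 0 fell, where 13.4% of all genes were higher and 12.9% lower. Kdm1a, or LSD1, which removes methyl groups from mono- and dimethylated H3 lysine 4, read 793 and 640 in qHF-SC, 1078 and 1026 in aHF-SC, and 1188 and 1443 in HF-TAC. Its arrays rose at each step without overlap. It was 1.84-fold higher in HF-TAC than in qHF-SC (log2 0.88 ± 0.18 SE, adjusted p = 0.0102), and its second probe set was higher by 0.77. The call was lost when qHF-SC replicate 2 (adjusted p = 0.0735) or HF-TAC replicate 2 (0.0532) was dropped, over a range of 0.00674 to 0.0735. Kdm1b, or LSD2, differed by 0.12 (95% interval −0.33 to 0.57).

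Kdm2b, a JmjC and CXXC protein that brings a variant Polycomb repressive complex 1 to CpG islands, read 312 and 257 in qHF-SC, 366 and 509.8 in aHF-SC, and 649 and 739.6 in HF-TAC. The groups did not overlap, and it was 2.45-fold higher in HF-TAC than in qHF-SC (log2 1.29 ± 0.21 SE, adjusted p = 0.0037). Its second probe set was higher by 1.13. Each step by itself, at 0.61 (adjusted p = 0.148) and 0.68 (0.0657), did not pass. Kdm2a, its paralogue, differed by 0.06 (95% interval −0.40 to 0.52) between HF-TAC and qHF-SC.

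Kdm8, a JmjC protein whose demethylase activity is debated, was among the dimmest members, at 20.7 and 24.8 in qHF-SC, 24.3 and 27.0 in aHF-SC, and 46.4 and 41.9 in HF-TAC. The HF-TAC arrays lay above all others, and the stem cell groups overlapped. It was 1.95-fold higher in HF-TAC than in qHF-SC (log2 0.96 ± 0.17 SE, adjusted p = 0.00497) and 1.72-fold higher than in aHF-SC (log2 0.78 ± 0.17 SE, adjusted p = 0.0176). In both comparisons the stem cell side was under an intensity of 32. The second call was lost without aHF-SC replicate 1 (adjusted p = 0.0874), aHF-SC replicate 2 (0.059) or HF-TAC replicate 1 (0.0694), the lowest value over the alternatives being 0.0135.

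Kdm7a, which removes dimethyl marks from H3 lysine 9 and lysine 27, was called from aHF-SC to HF-TAC alone. It read 114 and 98.2 in qHF-SC, 88.3 and 97.3 in aHF-SC, and 135 and 165 in HF-TAC, with the lowest values in aHF-SC. It was 1.61-fold higher in HF-TAC than in aHF-SC (log2 0.69 ± 0.17 SE, adjusted p = 0.0347), and 3 of its 5 probe sets passed there when tested one by one. The dimmest of these 3 stayed under an intensity of 32 in every group. The call was lost without either qHF-SC array (adjusted p = 0.0549), aHF-SC replicate 1 (0.143), aHF-SC replicate 2 (0.0984) or HF-TAC replicate 2 (0.153), with an intensity trend (0.0527), with only these 2 groups fitted (0.0549) and with the replicate block (0.0555), and the range over all alternatives was 0.0194 to 0.153. Against qHF-SC the difference of 0.50 did not pass (adjusted p = 0.0781).

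The other JmjC enzymes were not called in any comparison. Kdm4a, which acts on H3 lysine 9 and lysine 36, read 62.2 and 64.9 in qHF-SC, 78.1 and 129.5 in aHF-SC, and 77.9 and 90.0 in HF-TAC, and had the largest uncalled difference of the first step (0.66, 95% interval 0.09 to 1.24, adjusted p = 0.181). Kdm6a and Kdm6b, the demethylases of H3 lysine 27, differed by −0.13 (−0.49 to 0.22) and 0.27 (−0.23 to 0.77) between HF-TAC and qHF-SC. Of the H3 lysine 4 demethylases, Kdm5a differed by 0.12 (−0.31 to 0.56), Kdm5b by 0.55 (−0.04 to 1.13) and Kdm5c by 0.38 (−0.10 to 0.86). The H3 lysine 9 demethylases Kdm3a and Kdm3b differed by 0.26 (−0.19 to 0.70) and −0.33 (−0.69 to 0.02), and Kdm4b and Kdm4c by −0.10 (−0.45 to 0.26) and −0.20 (−0.66 to 0.26). Kdm4d was the member with the lowest mean and read 6.7 to 9.5 on all arrays, under an intensity of 32 in every group, so no fold is given for it.

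**Figure D2:**
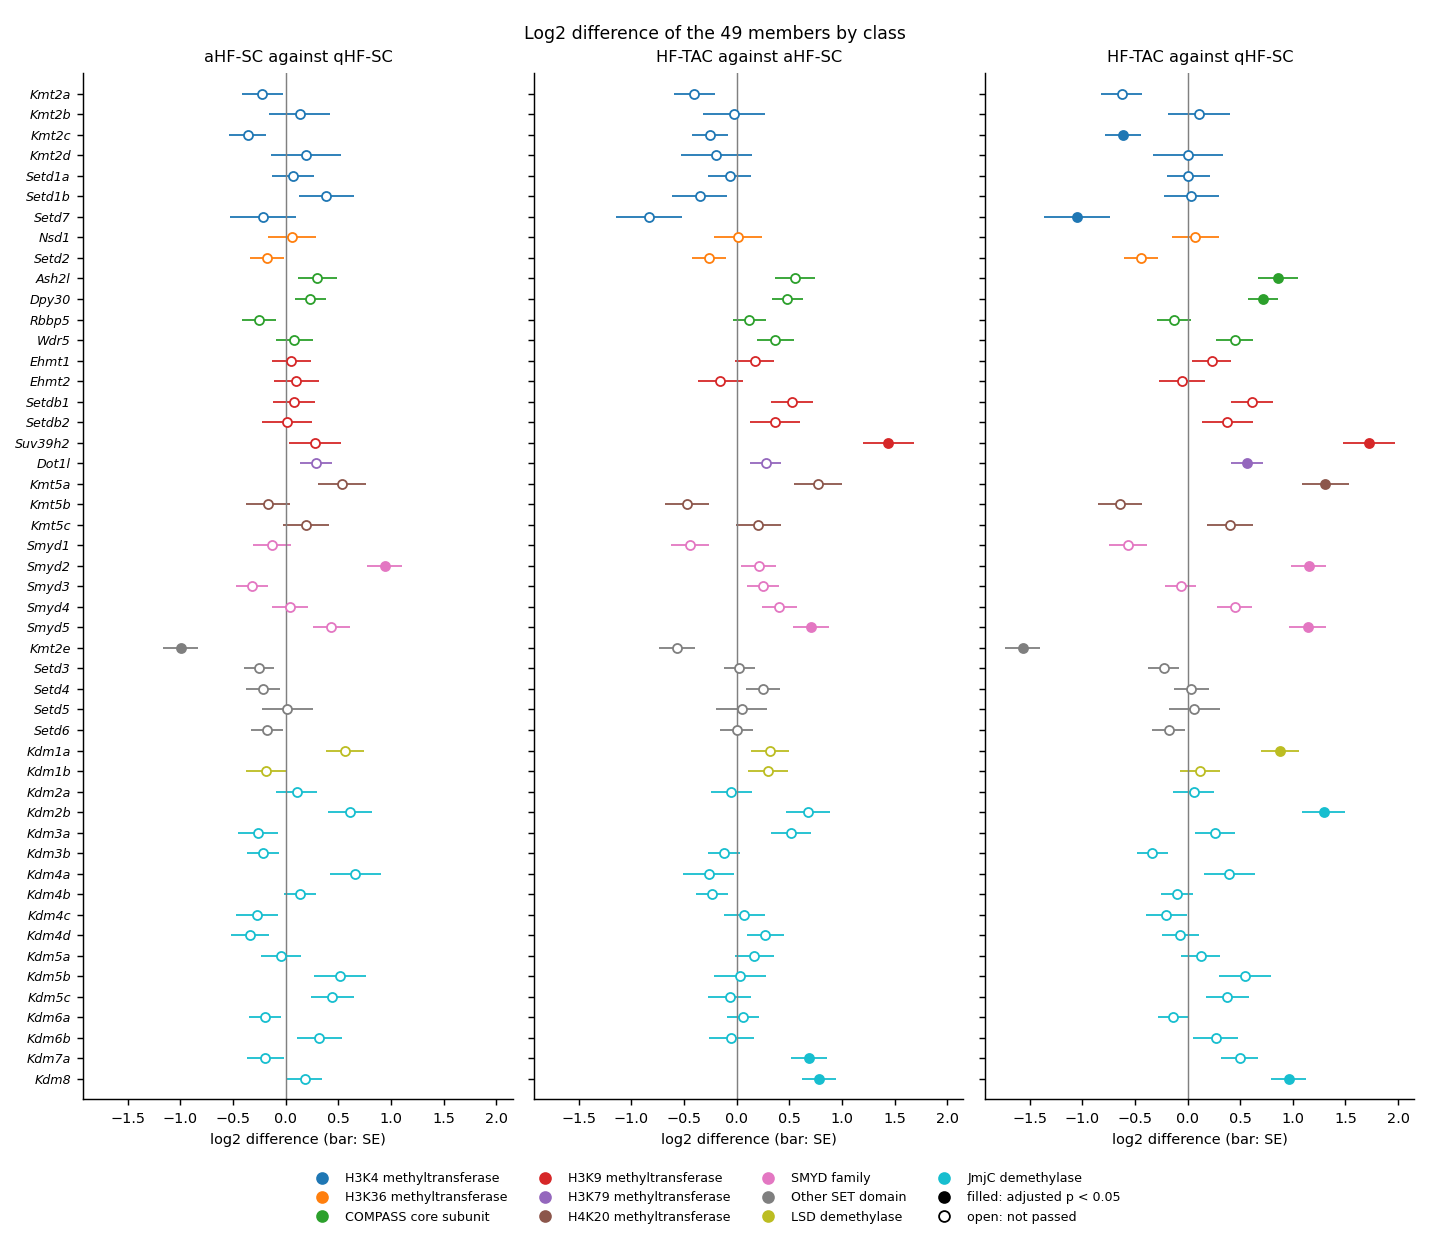
Log2 difference of each of the 49 members in the 3 comparisons, grouped by class, with bars of 1 SE and filled points where the adjusted p was under 0.05. Filled points number 2, 4 and 13 from left to right, and the widest range, −1.57 to 1.72, is that of HF-TAC against qHF-SC.

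Most members were called in no comparison. Of these 35, 31 had a 95% interval within 2-fold in either direction between HF-TAC and qHF-SC, by the brightest probe set. The exceptions were Kdm5b, Kmt2a, Kmt5b and Setdb1. Such an interval was found for all 35 between HF-TAC and aHF-SC and for 32 between aHF-SC and qHF-SC. Dimmer probe sets of Nsd1 and Wdr5 lay past 2-fold, by 1.42 and 1.64 over qHF-SC and by 1.04 each over aHF-SC. These passed when tested by themselves. The median member difference was 0.06 at the first step, 0.07 at the second and 0.11 from end to end, against 0.00, −0.01 and −0.01 over all genes. Between HF-TAC and qHF-SC, 7 members (14.3%) passed 2-fold in either direction, against 16.2% of all genes.

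The medians moved with single arrays. In HF-TAC, replicate 2 read higher than replicate 1 in 41 of the 49 members, by a median of 0.25 on the log2 scale, while over all genes it was higher in 53.3%. Replicate 2 was higher in 35 members in aHF-SC and in 13 in qHF-SC. Without HF-TAC replicate 1 the median member difference between HF-TAC and qHF-SC was 0.31, and without HF-TAC replicate 2 it was −0.00. From qHF-SC to aHF-SC it was −0.07 when aHF-SC replicate 2 was dropped and 0.15 when replicate 1 of that group was dropped. From aHF-SC to HF-TAC it was 0.01 when HF-TAC replicate 2 was dropped and 0.23 when replicate 1 of that group was dropped.

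**Figure D3:**
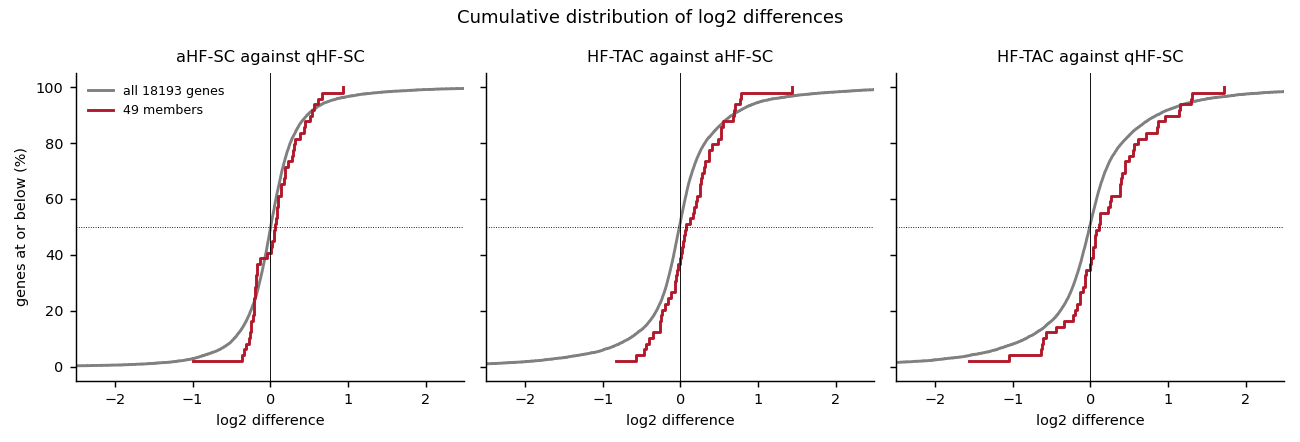
Share of genes at or below each log2 difference for the 49 members (red) and all 18193 genes (grey) in the 3 comparisons, with a dotted line at 50%. The member curve crosses 50% at 0.06, 0.07 and 0.11 from left to right, against 0.00, −0.01 and −0.01 for all genes.

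Without regard to the test, the arrays of the compared groups did not overlap in 23 members at the first step (46.9% against 50.8% of all genes), 28 at the second (57.1% against 54.3%) and 32 from end to end (65.3% against 61.2%). Of the 23 at the first step 12 were higher (24.5% against 25.7%) and 11 lower (22.4% against 25.1%). Of the 28 at the second step 19 were higher (38.8% against 26.4%) and 9 lower (18.4% against 27.9%). From end to end 19 were higher (38.8% against 30.0%) and 13 lower (26.5% against 31.2%). Ash2l, Dot1l, Dpy30, Kdm1a, Kdm2b, Kmt5a and Smyd5 rose without overlap at both steps, which is 14.3% of the members against 8.38% of all genes. Kdm3b, Kmt2c, Kmt2e and Kmt5b went down without overlap at both steps, which is 8.16% against 7.69%. Both steps share the aHF-SC arrays. Whether a member's second step differed from its first was tested in the same fit, and limma called 0 members, against 5.71% of all genes. By an unadjusted p under 0.05 there were 4, which is 8.16% of the members against 18.8% of all genes. The second step exceeded the first by 1.16 ± 0.43 SE in Suv39h2 (adjusted p = 0.196), by 0.88 ± 0.30 in Kdm7a (0.164) and by 0.78 ± 0.33 in Kdm3a (0.26) on the log2 scale. In Smyd2 it was smaller by that measure, at −0.73 ± 0.29 (0.229).

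Probe sets of 1 gene did not always give the same answer. Of the 29 members with at least 2 probe sets above an intensity of 32, 20 had 1 sign in all of them between HF-TAC and qHF-SC and 9 had both signs. Of the 13 called members in that comparison 9 have such probe sets, and in 7 of these, Dot1l, Kdm1a, Kdm2b, Kmt2e, Kmt5a, Smyd5 and Suv39h2, every one passed in the same direction when tested by itself. In Ash2l and Kmt2c only part of them did. Kdm5c showed the widest disagreement of calls: of its 9 probe sets 1 was higher by 0.74 (adjusted p = 0.012) and 1 was lower by 0.53 (adjusted p = 0.0368). In Nsd1, a probe set at 31.5, 40.4 and 83.1 in the 3 groups was higher by 1.42 in HF-TAC than in qHF-SC (adjusted p = 0.00168), whereas the brightest one differed by 0.07. Over all 131 probe sets of members, 20 were higher and 7 lower in HF-TAC than in qHF-SC, where 20.1% of all 45037 probe sets were called.

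**Figure D4:**
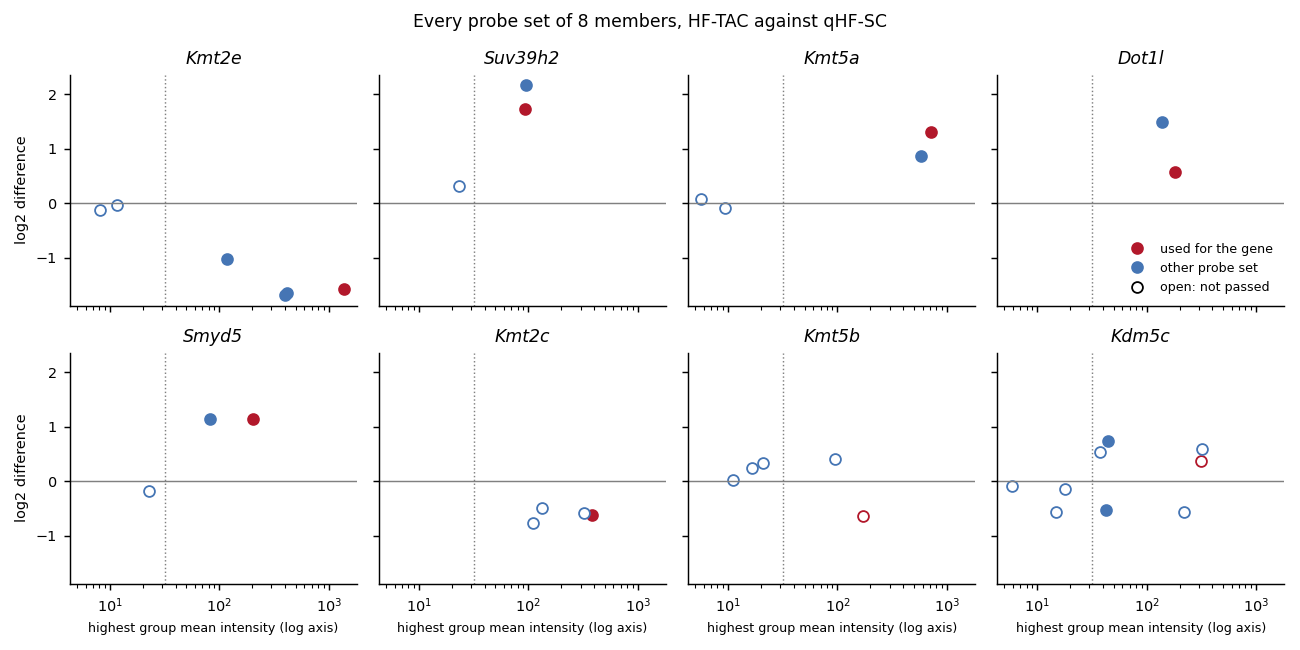
Log2 difference between HF-TAC and qHF-SC of every probe set of 8 members against the highest group mean of that probe set, on a log axis, with the probe set used for the gene in red, others in blue, filled points where the adjusted p was under 0.05 and a dotted line at an intensity of 32. The 4 brighter Kmt2e probe sets all lie below −1, and those of Kmt5b and Kdm5c lie on both sides of 0.

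A list of 39 genes, of which 38 were measured, was described in the same way. Their products read lysine methylation, work with the member enzymes, or are enzymes of the same kind outside the rule for members, such as Nsd2. From qHF-SC to HF-TAC 11 of the 38 rose (28.9% against 13.4% of all genes), 4 fell (10.5% against 12.9%) and 23 did not pass, with a median of 0.27. From qHF-SC to aHF-SC 1 rose (2.63% against 3.07%) and 2 fell (5.26% against 3.21%). From aHF-SC to HF-TAC 6 rose (15.8% against 8.97%) and 2 fell (5.26% against 8.57%). These counts were not refitted with arrays left out. Uhrf1, which binds methylated H3 lysine 9 and hemimethylated DNA during replication, read 129 and 112 in qHF-SC, 622 and 419 in aHF-SC, and 1694 and 2541 in HF-TAC, and it was called higher at both steps (log2 2.09 ± 0.26 SE and 2.02 ± 0.26 SE). Psip1, or LEDGF, a reader of H3 lysine 36 methylation, read 131 and 98.2 in qHF-SC, 203 and 121 in aHF-SC, and 417 and 549 in HF-TAC. It was 4.22-fold higher in HF-TAC than in qHF-SC (log2 2.08 ± 0.29 SE, adjusted p = 0.00182).

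Another pair from this list rose at the step into transit-amplifying cells. Cbx5, or HP1 alpha, the reader of the trimethyl mark that Suv39h2 places, was 2.46-fold higher in HF-TAC than in aHF-SC (log2 1.30 ± 0.31 SE, adjusted p = 0.027). Nsd2, a dimethyltransferase of H3 lysine 36 outside the rule for members, was 2.17-fold higher (log2 1.12 ± 0.25 SE, adjusted p = 0.0213). Cbx1 and Cbx3, also on the list, did not pass at this step, at 0.55 (adjusted p = 0.163) and 0.10 (0.84). Cbx3 was under an intensity of 32 in every group. Atf7ip, the partner that stabilises Setdb1, was 2.93-fold lower in HF-TAC than in qHF-SC (log2 −1.55 ± 0.23 SE, adjusted p = 0.00251). It read 386 on both quiescent arrays and 109 and 159.5 in HF-TAC. Trim28, also on the list, was higher in the same comparison (log2 0.66 ± 0.17 SE, adjusted p = 0.0266). Aff1, a scaffold of transcription elongation complexes, was 1.96-fold lower in aHF-SC (adjusted p = 0.0181) and 2.73-fold lower in HF-TAC (adjusted p = 0.000741) than in qHF-SC. Mllt3, or AF9, was 2.59-fold lower in aHF-SC than in quiescent cells (log2 −1.37 ± 0.28 SE, adjusted p = 0.0351), and in HF-TAC its difference from qHF-SC was −0.88 (adjusted p = 0.0561). Mllt1, Mllt10 and Aff4, also on the list, did not pass at the first step (0.43, adjusted p = 0.272; −0.17, 0.686; −0.03, 0.955), and of these Aff4 was lower in HF-TAC than in qHF-SC (log2 −0.66, adjusted p = 0.0253).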

How the data were processed

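Intensities of 45101 probe sets on 6 arrays were used as the authors deposited them, on a linear scale. RMA is named without a version in the submitters' processing notes. Not given in the sources used here are its settings, the chip definition and a genome build. RMA usually makes array distributions alike, which assumes that most RNA does not shift, and it compresses dim signals. No detection calls were used. After 64 control probe sets were left out, 34945 carried 1 gene symbol in the platform annotation, 932 several and 9160 none, and 34741 of those with 1 symbol matched a RefSeq gene table. The probe set with the highest mean stood for each gene. Log2 values of 18193 genes were fitted as group means with limma 3.58.1 in R 4.3.3 (residual df 3, prior df 4.25), with two-sided tests, Benjamini-Hochberg adjustment over all genes and a threshold of 0.05. The script was tested on simulated data. With 2 arrays a group, the number of arrays limits the precision. Genes were named where they were called and their arrays lay apart, together with the highest and lowest means and the 2 largest uncalled differences per comparison. From the list of 39 genes, up to 4 calls per comparison were named. Other members are given with their intervals. Alternatives covered the probe set rule, the scaling, a pseudocount of 16, a filter at an intensity of 32, the variance model, array weights, the groups fitted, the replicate block and leaving out each array, whose lone partner is then assumed to vary like the other groups. Tests of single probe sets and of the difference between steps were added after seeing the data. Members and lists were chosen with earlier results of these data known.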

Additional observations from a re-analysis of the deposited data

How the results depend on the processing

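Of the 19 calls of single members, 7 passed in all 11 other settings and in all 6 fits without an array: those of Kdm2b, Kdm8, Kmt2e, Kmt5a, Smyd2, Smyd5 and Suv39h2 between HF-TAC and qHF-SC. Between aHF-SC and qHF-SC, averaging a gene's probe sets gave 2 members higher (main 1) and 0 lower (main 1). Between HF-TAC and aHF-SC, quantile normalization and scaling to the 75th percentile gave 1 lower each (main 0). Between HF-TAC and qHF-SC, where 3 were lower, these 2 settings gave 5 each, and centring on the median, fitting only the 2 groups and the replicate block gave 1 each. Kmt5b in that comparison changed sign to 0.08 (adjusted p = 0.775) when its probe sets were averaged, 3 of which were under an intensity of 32. Without 1 array, members higher and lower numbered 0 to 1 and 0 to 1 between aHF-SC and qHF-SC, 1 to 3 and 0 to 0 between HF-TAC and aHF-SC, and 6 to 10 and 1 to 3 between HF-TAC and qHF-SC. The median member difference then ran from -0.07 to 0.15, 0.01 to 0.23 and -0.00 to 0.31. The test of the difference between steps called 0 members in all settings run. The replicate numbers were not taken to pair the arrays. Deviations of same-numbered arrays correlated at 0.0615 over all genes and 0.0759 over the members between qHF-SC and aHF-SC. Between qHF-SC and HF-TAC these values were -0.127 and -0.314. Between aHF-SC and HF-TAC they were 0.0838 and 0.449, so the members' deviations were less alike in 2 pairs of groups than in this one. With the replicate block, 12 members were higher and 1 lower between HF-TAC and qHF-SC, and 3 were higher between HF-TAC and aHF-SC. The causes of these shifts were not tested. Intensities under 32 limit what can be said of Kdm4d, Kdm8 and Suv39h2.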
